A study of Mus musculus with 6 samples.

Results

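The 6 genes described here, Rtp1, Rtp2, Reep1, Ric8b, Gfy and Stoml3, encode proteins that help odorant receptors leave the cell body, activate their G protein, or shape the membrane of the sensory cilium. They were chosen by name from a table of 40273 genes, and all 6 were present and passed the filter on low values, as did 20368 genes in all. Their levels were measured by sequencing of total RNA from olfactory mucosa, the lining of the nose with the olfactory sensory neurons. The tissue came from 6 male mice on postnatal day 30, all on the mixed strain background 129S6;C57BL/6J. The 3 controls were wildtype, and the 3 deletion mice lacked eC, an element of 1005 bp on chromosome 7 (102916999 to 102918004) that the series title calls an enhancer of class I odorant receptors. The comparison asks whether the transcripts of these helpers differ in level when the enhancer is gone.

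Odorant receptors are made in the endoplasmic reticulum and must pass the Golgi and the dendrite before they reach the cilia that lie in the nasal mucus. Most of them are held back inside cultured cells unless olfactory accessory proteins are supplied. In the cilium a bound receptor activates the G protein subunit encoded by Gnal, and adenylyl cyclase 3 then makes the cyclic AMP that opens the transduction channel.

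The libraries held 30342763 to 50906277 reads assigned to genes. No label accounts for a split of the libraries into 2 sets, seen in how many genes were detected. Set A (control replicate 1, deletion replicates 1 and 2) had reads for 26564 to 27879 genes and set B (control replicates 2 and 3, deletion replicate 3) for 36197 to 37456. The same sets lay apart on principal component 1 (66.1% of the variance), so the fold changes of the 6 genes are also given from a model that includes the set. Olfr571, a receptor gene whose 5′ exon lies within the deleted interval, had 61, 39 and 34 reads in the controls and 0 in each deletion library, which checks the group labels. All 8 markers of mature sensory neurons and all 8 of sustentacular (supporting) cells had reads in every library.

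Per kilobase of exon, Stoml3 had the highest level of the 6 genes and Reep1 the lowest, a ratio of 45.3 in the controls and 40.6 in deletion mice. In the controls Stoml3 reached 32772 ± 2856 normalized counts per kb (SD, n = 3), rank 45 of the 20271 tested genes that have an annotated length. Ric8b (7159 ± 726), Rtp1 (7154 ± 824) and Rtp2 (5850 ± 765 normalized counts per kb, SD, n = 3) followed and overlapped with their neighbours in this order. Gfy (1616 ± 325) and Reep1 (723 ± 56.4 normalized counts per kb, SD, n = 3) lay below them without overlap, and the order was the same in the deletion libraries. For scale, Omp, whose olfactory marker protein fills mature sensory neurons, had 77631 ± 7479 normalized counts per kb in the controls (SD, n = 3), so the 6 genes stood at 0.931% (Reep1) to 42.2% (Stoml3) of its level per length.

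**Figure D1:**
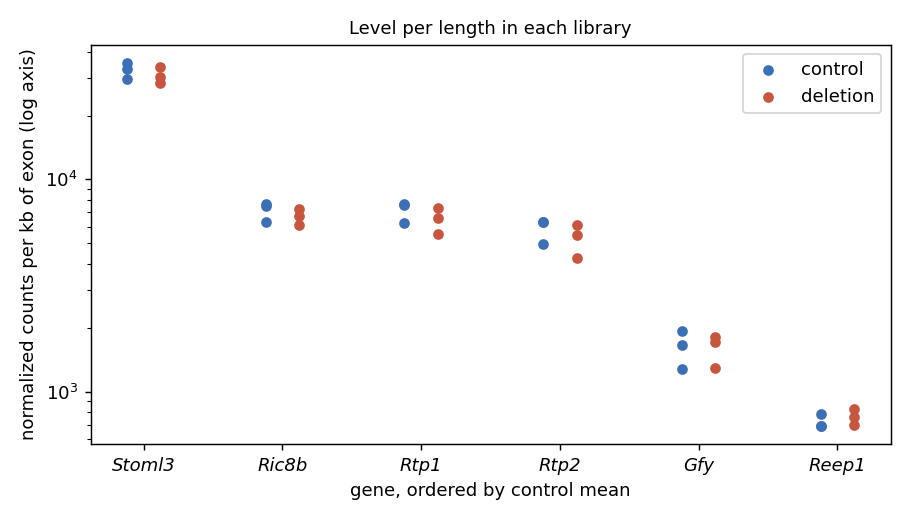
Level of each gene per kilobase of merged exon length (log axis), 1 point per library, controls in blue and deletion libraries in red. Stoml3 stands above the rest, Ric8b, Rtp1 and Rtp2 overlap, and Gfy and Reep1 lie below them in both groups.

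None of the 6 genes passed the test between deletion and control mice, which 0.0736% of all tested genes did (15 of 20368; limma, Benjamini-Hochberg adjustment over all of them, threshold 0.05). None had an unadjusted p under 0.05 either, which 2.7% of all tested genes had, and edgeR on the recovered reads called 15 genes in all and 0 of the 6. The 6 genes were likewise not called by DESeq2 (0.162% of the genes it tested), with the library set as a term (0.177% of all tested genes) or with the replicate number as a block (0.226%). The values of deletion and control libraries overlapped for every one of the 6, while 7.68% of all tested genes had groups that did not overlap. The fold changes, on the scale of log2(value + 1), were below 0 for 5 genes and above 0 for Reep1, with a median of -0.09 beside 0.01 over all tested genes. In the authors' deposited table the log2 fold changes, coded there as control over deletion, ran from -0.06 (Reep1) to 0.10 (Rtp1), with an adjusted p of 1.00 for each of the 6.

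**Figure D2:**
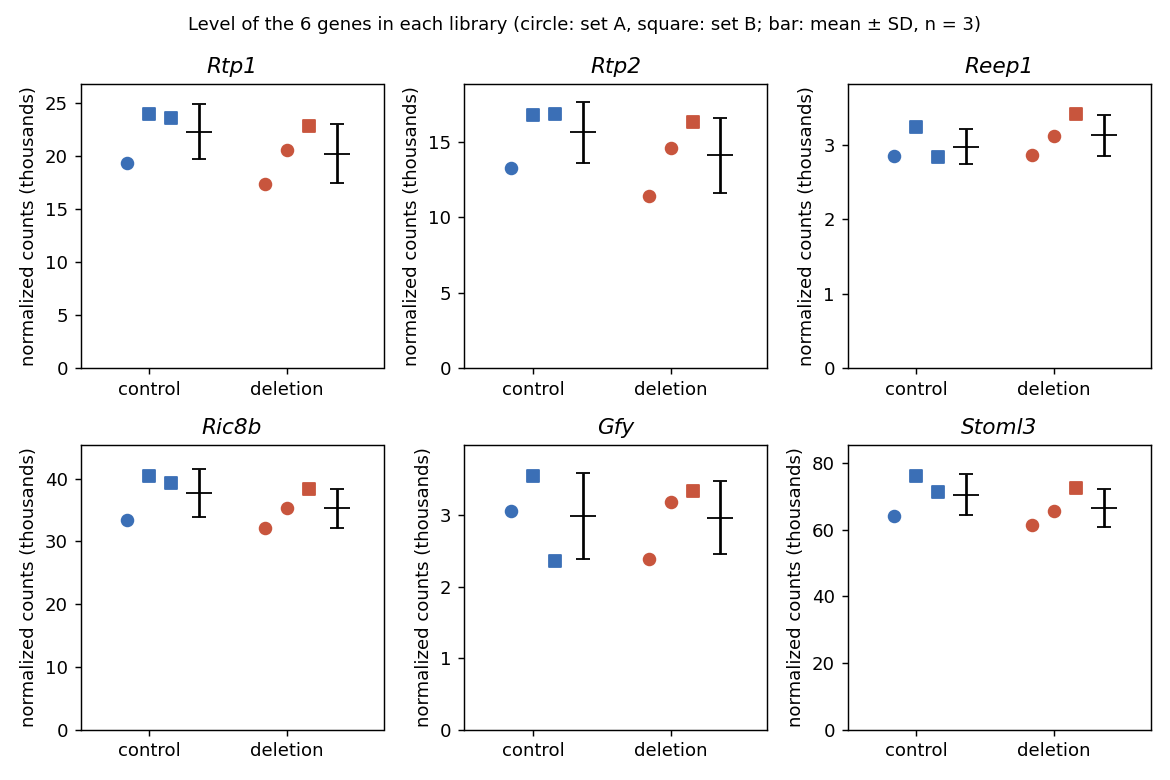
Normalized counts of each gene in the 3 control and 3 deletion libraries, with circles for library set A, squares for set B, and the mean ± SD beside each group. In every panel the points of the groups overlap.

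Rtp1 and Rtp2 encode receptor transporting proteins, membrane proteins that carry odorant receptors to the cell surface, and mice without both fail to bring many receptors there. The genes lie 492 kb apart on mouse chromosome 16, Rtp1 (ENSMUSG00000033383.6) at 23429133 to 23433960 on the plus strand and Rtp2 (ENSMUSG00000047531.8) at 23925548 to 23932394 on the minus strand (GRCm38). Their coding sequences match at 82.2% of 663 aligned bases, and the longest identical run spans 47 bases. That stretch, with 20 bases on each side, is shown because it is where reads of the pair are hardest to tell apart (GENCODE transcripts Rtp1-201 and Rtp2-201, plus sense of each transcript, identical run in capitals).
Rtp1: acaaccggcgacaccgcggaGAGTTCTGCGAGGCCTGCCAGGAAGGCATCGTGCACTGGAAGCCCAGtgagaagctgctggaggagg
Rtp2: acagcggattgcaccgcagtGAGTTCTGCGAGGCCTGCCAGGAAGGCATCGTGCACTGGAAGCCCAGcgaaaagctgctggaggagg
Of all windows of 50 bases in the transcripts of Rtp1 and Rtp2, 0 occurred in a transcript of another gene.

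Rtp1 had 19358, 23967 and 23632 normalized counts in control replicates 1, 2 and 3 and 17334, 20564 and 22820 in deletion replicates 1, 2 and 3. Deletion replicate 1 was lowest and control replicate 2 highest, and the groups overlapped. The log2 fold change was -0.14 ± 0.12 (SE; adjusted p = 0.982, limma), a difference of -9.47% with a 95% interval from -25.6% to 10.2%. Rtp2 had 13279, 16792 and 16854 normalized counts in control mice and 11430, 14589 and 16357 in the deletion libraries, with the same libraries at the low end. Its log2 fold change was -0.15 ± 0.15 (SE; adjusted p = 0.982, limma), with a 95% interval from -28.8% to 13.5%. Within a library the pair kept a nearly fixed proportion, which was 0.686, 0.701 and 0.713 counts of Rtp2 per count of Rtp1 in the controls and 0.659, 0.709 and 0.717 in deletion mice. That proportion varied by 3.11% (SD over mean, 6 libraries), while Rtp1 itself varied by 11.5% among the controls and 13.6% among the deletion libraries. Counts of Rtp1 per count of Omp varied by 3.45% and of Ric8b per count of Rtp1 by 4.04% (6 libraries). A steady proportion was thus not particular to the pair.

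Among relatives, Rtp4, an interferon-induced member, had 186 ± 48.5 normalized counts in control mice and 155 ± 6.66 with the deletion (SD, n = 3), and limma put its log2 fold change at -0.24 ± 0.18 (SE; adjusted p = 0.982). Rtp3, known as a liver gene, did not pass the filter. It had 0, 11.5 and 6.98 normalized counts in control mice and 0.747, 0 and 8.45 in the deletion libraries, so the 3 libraries of set B held nearly all of its reads.

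Reep1 encodes a hairpin membrane protein that shapes the tubular endoplasmic reticulum and raises odorant receptor levels at the surface of cultured cells. Mutations of the human gene cause a hereditary spastic paraplegia. The mouse gene (ENSMUSG00000052852.8) lies on chromosome 6 at 71707561 to 71810710, plus strand. Its span holds 2 short annotated genes on the same strand, Gm44769 and Gm44770. Of 4158 windows of 50 bases in its transcripts, 0 occurred in a transcript of another gene, and shorter overlaps were not searched. Reep1 had 2846, 3240 and 2830 normalized counts in control mice and 2859, 3116 and 3410 in the deletion libraries. Deletion replicate 3 was highest and control replicate 3 lowest, with overlap. The log2 fold change was 0.07 ± 0.09 (SE; adjusted p = 0.982, limma; 95% interval from -8.65% to 21.1%).

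The relatives Reep2 to Reep6 were all measured, and 0 of 5 passed the test. Reep3 had the highest counts among them, 2391 ± 152 in the controls and 2652 ± 159 with the deletion (SD, n = 3; log2 fold change 0.15 ± 0.08). Reep5 had 1973 ± 272 and 2094 ± 258, Reep6 506 ± 137 and 539 ± 54.5, and Reep4 249 ± 48.5 and 299 ± 32.7 normalized counts (SD, n = 3). Reep2, the closest in coding sequence at 70.6% identity, was low here at 37.8 ± 2.64 and 29.4 ± 8.91 normalized counts (SD, n = 3). Atlastins, spastin and reticulons shape the same tubules as Reep1, and 0 of 8 measured genes of that list passed the test, which 0.0736% of all tested genes did (median log2 fold change -0.01). Among them Rtn4 had 11614 ± 165 and 11447 ± 599.9 normalized counts, Arl6ip1 10920 ± 456 and 10642 ± 221, Rtn3 8167 ± 489 and 8228 ± 244, and Rtn1 8022 ± 878 and 7916 ± 468 (controls and deletion, SD, n = 3).

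Ric8b encodes a chaperone and exchange factor for the G protein subunit of Gnal, and without it that subunit is unstable. The gene (ENSMUSG00000035620.14) lies on chromosome 10 at 84917616 to 85018337, plus strand. It had 33375, 40503 and 39352 normalized counts in control mice and 32190, 35328 and 38359 in the deletion libraries. The set A libraries were lowest in both groups, and the groups overlapped. The log2 fold change was -0.10 ± 0.10 (SE; adjusted p = 0.982, limma; 95% interval from -20.6% to 10.4%). Gnal had 73436 ± 8995 normalized counts in control mice and 70324 ± 8878 with the deletion (SD, n = 3; log2 fold change -0.06 ± 0.13). Counts of Ric8b per count of Gnal stood between 0.485 and 0.550 in the 6 libraries. Ric8a, the relative that serves other G protein subunits, had 4416 ± 147 and 4454 ± 180 normalized counts (SD, n = 3; log2 fold change 0.01 ± 0.06).

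Gfy encodes Goofy, a Golgi protein of olfactory sensory neurons that is needed in mice for adenylyl cyclase 3 to reach the cilia. It is the member that shares chromosome 7 with the deleted element, at 45176349 to 45179569 on the minus strand (ENSMUSG00000095276.2), 57.7 Mb below it. All 15 genes called in the whole table lie on chromosome 7 (0.851% of its 1762 tested genes), but 0 of the 68 tested genes within 500 kb of Gfy were called. Gfy had 3052, 3553 and 2356 normalized counts in control mice and 2382, 3183 and 3333 in the deletion libraries. Control replicate 3 and deletion replicate 1 were both low, and the groups overlapped over most of their range. The log2 fold change was -0.01 ± 0.17 (SE; adjusted p = 0.997, limma), with the widest 95% interval of the 6 genes, from -24.2% to 31.0%. The lowest library, control replicate 3, held 2026 reads of Gfy, for which counting error alone gives 2.22%, while the controls varied by 20.1% (SD over mean). Adcy3, the gene of the cyclase, had 43468 ± 3792 and 43783 ± 3542 normalized counts (SD, n = 3; log2 fold change 0.01 ± 0.10).

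Stoml3 encodes a stomatin-like protein that sits in the membrane of olfactory cilia and, in touch neurons, tunes mechanically gated channels. The gene (ENSMUSG00000027744.4) lies on chromosome 3 at 53488653 to 53508502, plus strand. It had 63993, 76209 and 71177 normalized counts in control mice and 61285, 65634 and 72488 in the deletion libraries, again with the set A libraries lowest. The log2 fold change was -0.08 ± 0.10 (SE; adjusted p = 0.982, limma; 95% interval from -19.8% to 11.1%). Stom, the founding member of the family, had 37631 ± 2895 normalized counts per kb in the controls (SD, n = 3), and a log2 fold change of 0.01 ± 0.10. Stoml1 had 2600 ± 50.2 and 2442 ± 255 and Stoml2, a mitochondrial member, 1466 ± 61.1 and 1418 ± 38.9 normalized counts (SD, n = 3). Of the windows of 50 bases of Stoml3, 15 of 2099 (0.715%) also occurred in transcripts of other genes, while for the other 5 members it was 0. Of 5 channels that stomatin proteins are known to bind or modulate, Piezo1, Piezo2, Asic1, Asic2 and Asic3, 0 passed the test, beside 0.0736% of all tested genes (median log2 fold change 0.05). Piezo1 had the highest fold change of them (0.39 ± 0.23 on the log2 scale, SE; 95% interval from -0.13 to 0.91; adjusted p = 0.982, limma), at 681 ± 128 and 915 ± 306 normalized counts (SD, n = 3).

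**Figure D3:**
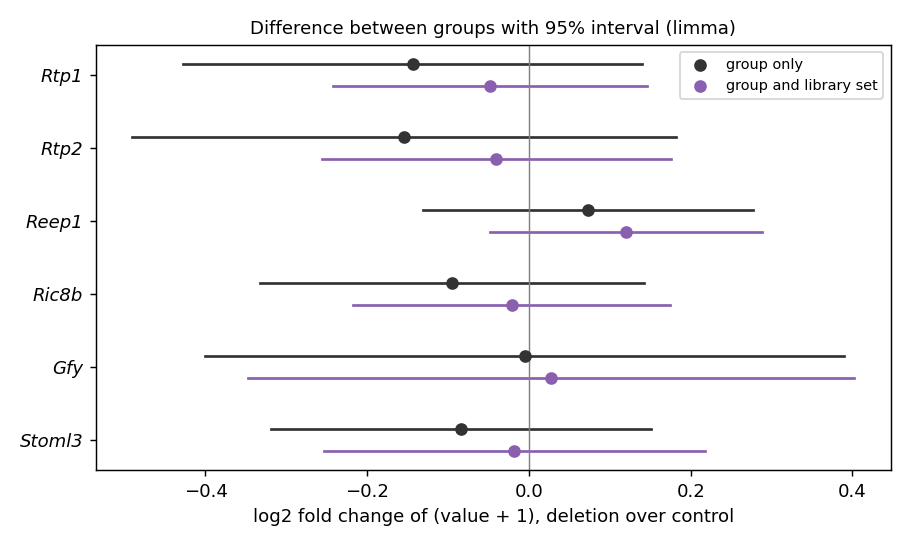
Log2 fold change of (value + 1), deletion over control, with its 95% interval from limma, for the group as the single term (dark) and with the library set as a further term (purple). Every interval includes 0, and for Rtp1, Rtp2, Ric8b and Stoml3 the estimates lie closer to 0 with the set in the model.

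The libraries of set B stood above those of set A without overlap for 4 of the 6 genes, Rtp1, Rtp2, Ric8b and Stoml3, as did 15.8% of all tested genes, while 19.9% stood lower without overlap. These sets were defined from the data, so no test was made between them. Rtp1 had 23473 ± 590 normalized counts in set B and 19085 ± 1632 in set A, Rtp2 16667 ± 271 and 13099 ± 1587, Ric8b 39405 ± 1073 and 33631 ± 1585, and Stoml3 73291 ± 2610 and 63638 ± 2196 (SD, 3 libraries each). The ratio of set B to set A was 1.23, 1.27, 1.17 and 1.15 for these genes. Reep1 and Gfy overlapped between the sets, with ratios of 1.07 each. Since set B holds 2 controls and 1 deletion library, the fold changes with the set as a term were nearer to 0, at -0.05 ± 0.09 for Rtp1, -0.04 ± 0.10 for Rtp2, -0.02 ± 0.09 for Ric8b and -0.02 ± 0.10 for Stoml3. Reep1 moved to 0.12 ± 0.07 and Gfy to 0.03 ± 0.17 (SE; adjusted p = 1.00 for each, limma).

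Most markers of mature sensory neurons were higher in set B as well. Omp had 149810, 181804 and 167705 normalized counts in control mice and 125370, 150823 and 162748 in the deletion libraries. In set B, 5 of its list of 8 markers stood above set A without overlap, as did 15.8% of all tested genes. Adcy3, Umodl1 and Carns1 of the list overlapped between the sets. The summed level of the 8 ran from 320430 to 381029 in set A and from 384445 to 433014 in set B. It ran from 356782 to 433014 in the controls and from 320430 to 394456 in deletion mice. The part of this in the values of the 6 genes was not tested. In tissue RNA, fewer neurons and less RNA per neuron cannot be told apart.

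**Figure D4:**
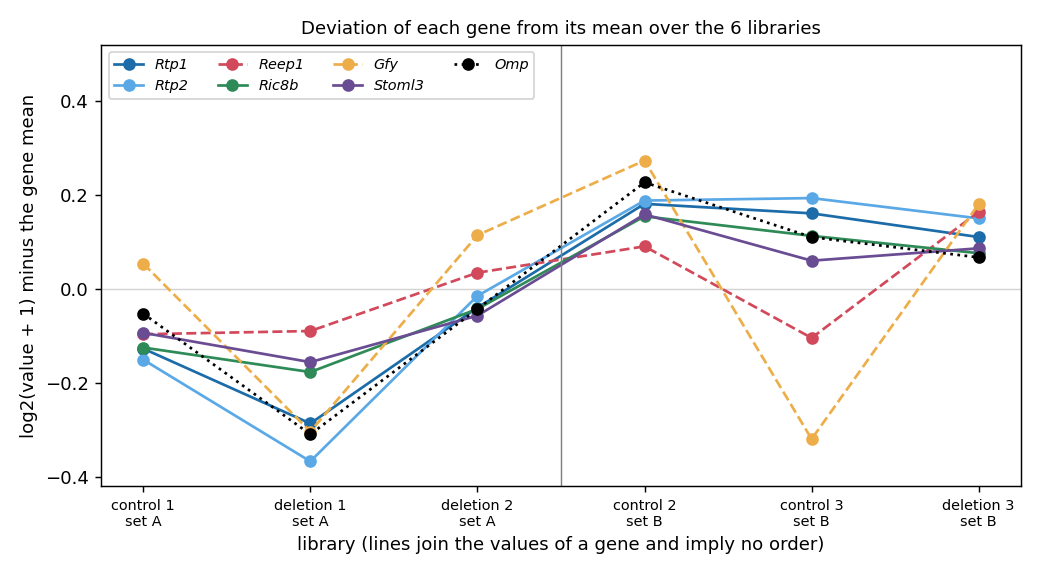
Deviation of log2(value + 1) from the gene's own mean in each of the 6 libraries, set A on the left and set B on the right, for the 6 genes and Omp (dotted). Rtp1, Rtp2, Ric8b, Stoml3 and Omp follow each other and lie higher in set B, and Gfy and Reep1 (dashed) overlap between the sets, with Gfy lowest in control replicate 3.

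Likeness of profile over the 6 libraries was measured as the root mean square difference between centred log2 values. It was 0.03 for Ric8b and Stoml3, 0.04 for Rtp1 and Rtp2, 0.05 for Rtp1 and Ric8b and 0.07 for Rtp1 and Stoml3. Rtp2 lay farther from Ric8b (0.09) and Stoml3 (0.11), and Reep1 was as near to Stoml3 (0.09) and Ric8b (0.11) but farther from Rtp1 (0.15) and Rtp2 (0.17). For Gfy it was between 0.16 and 0.24 with every other member. Of 14018 tested genes with a mean of at least 100 normalized counts, 0.11% lay closer to Ric8b than Stoml3 did. To Rtp1, 0.25% lay closer than Rtp2, 0.55% closer than Ric8b and 1.75% closer than Stoml3. For Reep1 and Gfy the shares closer to Rtp1 were 17.9% and 53.4%. For scale, Stoml3 itself deviated from its own mean by 0.11, as did the median of those 14018 genes. At 0.11 a gene is thus no nearer to Stoml3 than a flat profile would be. Among 14018 tested genes with a mean of at least 100 normalized counts, the closest profiles to Rtp1 were those of Manea and Ppfia2 (0.01 and 0.02), to Rtp2 those of Olfr972 and Fstl5 (0.02 and 0.03), and to Ric8b those of Ssx2ip and Tceal3 (0.01 each). Sept8 and Scrn1 came closest to Stoml3 (0.01 each), Snrk and Stk40 to Reep1 (0.02 and 0.03), and Srrd and Olfr1301 to Gfy (0.07 each). These are descriptions over 6 libraries that share the set difference.

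Omp, used next as a reference, itself lies on chromosome 7, as does the deleted element. Its own log2 fold change was -0.19 ± 0.13 (SE; adjusted p = 0.982, limma). Relative to Omp, the proportions of Rtp1 were 0.129, 0.132 and 0.141 in the controls and 0.138, 0.136 and 0.140 in deletion mice, so the groups overlapped. Reep1 was at 0.0190, 0.0178 and 0.0169 counts per count of Omp in the controls and at 0.0228, 0.0207 and 0.0210 in deletion mice. Stoml3 was at 0.427, 0.419 and 0.424 in the controls and 0.489, 0.435 and 0.445 in deletion mice. Reep1 and Stoml3 were thus 2 of 6 genes whose values per Omp were higher in every deletion library than in any control, as were 6.99% of all tested genes, while 0.604% were lower in every deletion library. On that scale the median log2 fold change of all tested genes was 0.20, and neither gene passed (log2 fold change 0.26 ± 0.14 for Reep1 and 0.11 ± 0.10 for Stoml3; adjusted p = 0.65 each, limma). The odorant receptors themselves, 1318 genes summed, had 111616, 140839 and 135410 normalized counts in control mice and 92562.5, 114636 and 136313 in the deletion libraries. Rtp1 counts per receptor count were 0.173 ± 0.0023 in the controls and 0.178 ± 0.010 (SD, n = 3) with the deletion, less apart than the deletion libraries were among themselves.

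Of the wider path 0 genes passed limma's test in any of the 6 lists, beside 0.0736% of all tested genes, and 0 had an unadjusted p under 0.05, beside 2.7%. With so few genes called in all, a count of 0 in lists of 5 to 20 genes does not set them apart from other genes. The olfactory signalling cascade had 18 measured members, 11 below 0 and 7 above, with a median log2 fold change of -0.03. Gnb1, a G protein beta subunit, had 50931 ± 5505 and 50954 ± 6260 normalized counts (controls and deletion, SD, n = 3). Of 20 genes of membrane traffic into cilia, 11 lay below 0 and 9 above (median -0.03). Cep290, of the ciliary gate, had 5645 ± 605 and 5283 ± 291 normalized counts, Pde6d, a carrier of prenylated proteins, 4508 ± 361 and 4026 ± 377, Unc119b, a carrier of myristoylated proteins, 3456 ± 106 and 3500 ± 330, and Arl13b, a ciliary GTPase, 3266 ± 426 and 3123 ± 324 (SD, n = 3). Of 19 genes of folding and export from the endoplasmic reticulum, 16 lay above 0 and 3 below, with a median of 0.04 and a range from -0.02 to 0.13. Of all 20368 tested genes, 10687 lay above 0. With the library set as a term the median of these 19 was 0.01. Hspa5, the main chaperone there, had 23322 ± 1880 and 25488 ± 2614 normalized counts, Hsp90b1 23586 ± 1113 and 23556 ± 817, Canx 20665 ± 666 and 21063 ± 917, and Calr 18567 ± 504 and 19216 ± 510 (SD, n = 3). The list of 10 tested relatives of the 6 genes had a median of 0.01.

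**Figure D5:**
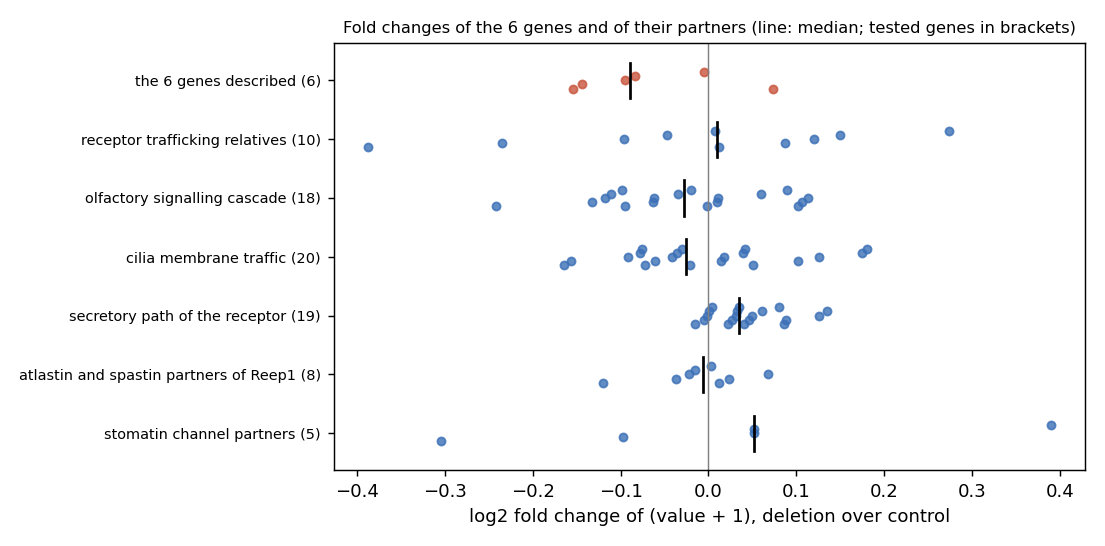
Log2 fold change of (value + 1), deletion over control, for the 6 genes (red) and for each tested gene of 6 lists of relatives and partners (blue), with a line at each median. No gene shown passed the test, and the medians of the 6 lists lie between -0.03 and 0.05.

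Markers of other cell types were counted in the same way, and 0 passed limma's test in any list, beside 0.0736% of all tested genes. An unadjusted p under 0.05 was found for 4 of 5 erythroid, 3 of 7 respiratory ciliated, 1 of 5 horizontal basal and 1 of 7 progenitor markers, beside 2.7% of all tested genes. DESeq2 called 2 erythroid markers, beside 0.162% of the genes it tested. The 7 markers of respiratory ciliated cells summed to 22535 to 28605 normalized counts in control mice and 27769 to 34091 in the deletion libraries. The 5 of horizontal basal cells summed to 3598 to 6269 and 4481 to 6213, and the 7 of progenitors to 6271 to 8597 and 6228 to 8742. Progenitor and basal sums thus overlapped between the groups. The 8 of immature neurons summed to 51746 to 55303 and 50120 to 52979, the 8 of sustentacular cells to 602077 to 699344 and 619118 to 625268, and the 6 of ensheathing glia to 6048 to 7239 and 6276 to 6606. The 6 of leukocytes summed to 2850 to 3657 and 2871 to 3483, and the 4 measured of 5 listed for vomeronasal neurons to 4968 to 5964 and 5532 to 6289. Nearly all of this last sum came from the G protein genes Gnao1 (2998 in the controls) and Gnai2 (2568). The receptors Vmn2r1 (15.9) and Vmn1r51 (3.97, below the filter) were near the floor, so the sum is no measure of vomeronasal neurons. The 5 of erythroid cells summed to 2176 to 2844 in the controls and 1209 to 1819 in deletion mice, without overlap, as 7.68% of all tested genes were singly. They hold the beta-globin genes Hbb-bs and Hbb-bt of chromosome 7. Most of the sum was Hbb-bs, at 1580 ± 232 and 909 ± 184 normalized counts (SD, n = 3), and all 5 had a fold change below 0. No marker of these lists was at 0 in any library, and their part in the values of the 6 genes was not tested.

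Genes near the 6 were counted in the same fit. Within 500 kb there were 15 tested genes around Rtp1, 7 around Rtp2, 20 around Reep1, 11 around Ric8b, 10 around Stoml3 and 68 around Gfy. The windows of Rtp1 and Rtp2 overlap, so Rtp4 was counted around both, and Rtp1 was counted around Rtp2. Limma and its adjustment called 0 of the genes in these windows, beside 0.0736% of all tested genes. An unadjusted p under 0.05 was found for 2 of the 68 around Gfy, a share near the 2.7% of all tested genes, and for 0 of the smaller numbers around the others.

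Upstream sequence could be read for 5 of the 6 genes from RefSeq (GRCm38.p6), and was searched on both strands over 250 bases before each RefSeq start. The motifs were CCCNNGGG, the core of the site of the Ebf (Olf/Ebf) factors, the full Ebf palindrome, which is that core with a T before it and an A after it, and the homeodomain motif TAATTA of the Lhx2 kind. Reep1 was searched too but is not shown. Matches to these motifs are in capitals, and the match of Rtp2 lies farther upstream than the stretch printed. Shown are 100 bases upstream of the start of Rtp2, Ric8b, Stoml3 and Gfy, each printed along its gene's own strand.
Rtp2 (chr16:23930795-23930894, minus): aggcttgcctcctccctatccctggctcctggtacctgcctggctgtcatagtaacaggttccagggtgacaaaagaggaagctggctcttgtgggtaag
Ric8b (chr10:84917513-84917612, plus): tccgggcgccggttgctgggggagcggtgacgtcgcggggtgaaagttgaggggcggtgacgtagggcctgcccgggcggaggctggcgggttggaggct
Stoml3 (chr3:53488553-53488652, plus): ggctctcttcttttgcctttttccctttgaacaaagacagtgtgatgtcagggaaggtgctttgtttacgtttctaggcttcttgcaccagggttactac
Gfy (chr7:45179598-45179697, minus): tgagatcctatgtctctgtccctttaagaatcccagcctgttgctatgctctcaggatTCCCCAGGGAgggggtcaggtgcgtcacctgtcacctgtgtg
The full palindrome was found for Gfy alone of the 5, starting 42 bases before its start, and in 0.779% of 32851 promoters. The core was found for Gfy, Reep1 and Rtp2 and in 11.8% of all promoters, and TAATTA in none of the 5 and in 4.84% of all. The stretch of Rtp2 lies before the RefSeq start and inside an intron of a longer GENCODE transcript, and that of Stoml3 was taken before the GENCODE start, which lies 54 bases above the RefSeq one. The promoter of Ric8b was the richest in G and C, at 69.2% with 16 CG pairs in 250 bases, beside medians of 52.4% and 6 over all promoters. That of Stoml3 was the poorest in G and C, at 46.8% with 2 CG pairs, while that of Rtp2 had 1 CG pair.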

How the data were processed

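The authors deposited 1 table of normalized values for 6 libraries, a signal made, per the file headers and the values, of gene counts divided by a size factor per library. Per the submitters' processing notes, the build was GRCm38.p6 and the tools included STAR 2.6.0 and DESeq2. The read counter, its annotation and its strand option: not given in the sources used here. The authors' deposited log2 fold change and its standard error, their test statistic (a score), and their p-value and adjusted p-value were read for the 6 genes. In each library 100% of values above 0 were whole multiples of 1 read (tolerance 0.001 reads), so whole reads were recovered; their totals ran from 30342763 to 50906277. Libraries of a group differed beyond sampling noise (chi-square per gene 17.4 to 47.5), and each is a separate animal per the series design.

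The main test was limma 3.58.1 (trend) in R 4.3.3 on log2(value + 1), a scale that understates changes of low genes, with group alone in the model, over 20368 genes with at least 10 in at least 3 libraries, adjusted by Benjamini-Hochberg over all of them. Counting error falls with reads (2.22% for the smallest count of the 6 genes) and covers counting only. Lengths, positions and neighbours came from GENCODE M21 (GRCm38), matched by identifier without version. The alternatives were edgeR 4.0.16, DESeq2 1.42.0 and limma voom on recovered reads, TMM factors, values per Omp, pseudocounts of 0.5 and 8, other filters, the library set or the replicate number as a term, single sets and each library left out. The fit was tested on simulated data without a library set difference, which checks the code and gives no support to the results here. The members, lists and motifs were chosen with earlier results of these data known. Named genes were the 6, Omp, Olfr571, any list gene or neighbour called, the 4 highest of each partner list, all measured relatives and the 2 closest profiles, apart from 2 genes that are not reported here; Gm44769 and Gm44770 were named for their overlap with Reep1, and other list members beyond the rule after their values were seen.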

Additional observations from a re-analysis of the deposited data

How the results depend on the processing

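In none of the 19 alternatives was any of the 6 genes called. Their smallest adjusted p was 0.385 (Rtp2, replicate block, limma). With values per Omp the fold changes of Rtp1, Rtp2, Ric8b, Gfy and Stoml3 turned above 0, at 0.046, 0.036, 0.095, 0.18 and 0.11 on the log2 scale, where the median of all tested genes was also above 0, at 0.20. Omp, a gene of chromosome 7, was itself at -0.19 in the main fit. Ric8b was at 0.015 in set A alone, and Gfy at 0.028 with the set as a term and 0.20 in set B alone. With each library left out in turn, Gfy ran from -0.17 to 0.14 and turned above 0 when control replicate 1 (0.02), control replicate 2 (0.13) or deletion replicate 1 (0.14) was omitted. On the same omissions Rtp1 ran from -0.24 to -0.04, Rtp2 from -0.27 to -0.01, Ric8b from -0.18 to -0.03, Stoml3 from -0.15 to -0.03 and Reep1 from 0.01 to 0.14. The causes were not tested.

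The count of all genes called, 15, was 40 with DESeq2, 46 with the replicate block, 36 with the library set as a term, 2 in set A alone and 90 in set B alone, and 6 to 24 with a library left out (9 when control replicate 1 was omitted, 6 for control replicate 2 and for deletion replicate 2, 24 for deletion replicate 3). Erythroid markers called were 2 with DESeq2, the set as a term or set B alone and 1 with the replicate block; they were 0 to 1 with a library left out (1 for deletion replicate 3). The replicate block called 2 respiratory ciliated markers and set B alone 1 horizontal basal marker. Same-numbered libraries correlated at 0.65, -0.34 and 0.66 in their deviations from the group means. Libraries of the same set also correlated where the numbers differed, at 0.50 (control 1, deletion 2) and 0.58 (control 2, deletion 3). Every pair across the sets correlated below 0, from -0.80 (control 1, deletion 3) to -0.34 (the same-numbered control 2 and deletion 2). The sign of the correlations thus followed the library set and not the number. Pairing by number beyond the set was not tested. Of the 6 genes, Rtp1 and Rtp2 had an unadjusted p under 0.05 in the fit with the block, as did 10.9% of all tested genes, and neither passed. In any single set a group is left with 1 library, assumed to vary like the others.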
